A study of Mus musculus with 26 samples.

Results

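The Fos, Jun and Egr immediate early genes were followed across motor neuron cultures exposed to moving or still magnetic arrays or to media of the muscle exercise experiment. The members were chosen by gene symbol: Fos, Fosb, Fosl2, Jun, Junb, Jund, Egr1, Egr2, Egr3 and Arc, 10 of the 56941 genes in the expression tables. All 10 passed the filter on low counts, and 14730 genes of the tables did so. The cells came from HBG3, a line of mouse embryonic stem cells labelled as from heterozygous blastocysts, in which the promoter of the motor neuron factor HB9 (gene Mnx1) drives GFP. Every group carried this reporter and was driven towards motor neurons with retinoic acid and a Hedgehog agonist, then CNTF and GDNF, and was placed on fibrin as spheroids at about day 8 of differentiation. The actuated array group (n = 4) sat on a magnetic silicone array actuated at 4 Hz in daily sessions of 30 min. The static array group (n = 4) sat on such an array that was never moved. The high intensity (n = 6) and low intensity (n = 6) groups carry labels of biochemical treatment, and the controls (n = 6) are labelled as biochemical controls. The design text speaks of medium taken from muscle that had or had not been stimulated with light, but under other names, which no label ties to an intensity, so the groups are named by intensity only. The study aimed to separate mechanical from biochemical influences of muscle on motor neurons. All groups are 1 cell line, nothing in the labels says that replicates came from separate differentiations, and no sort of GFP-positive cells is mentioned, so the spheroids can hold other cell types. The time between the last actuation or medium change and lysis is not given in the sources used here.

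Immediate early genes are transcribed within minutes of a stimulus, without prior protein synthesis, when calcium and MAP kinase signals reach factors such as SRF with its ELK partners and CREB that already sit on their promoters. Fos and Jun proteins pair through leucine zippers to form AP-1, which binds the AP-1 site, and Egr proteins are zinc finger factors that bind GC-rich sites. In neurons the messages rise after depolarisation, growth factors or mechanical and handling stimuli and decay within a few hours, and Arc encodes a postsynaptic protein that promotes the internalisation of glutamate receptors. Jun and Jund are expressed more steadily than Fos, Fosb, Junb and the Egr genes.

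Promoter sequences were read for the members with an entry in the RefSeq promoter table of build GRCm38.p6, which held 7 of the 10: Fos, Fosb, Fosl2, Jun, Junb, Jund and Egr2. Windows of 300 bases, from 250 before to 50 after each start site, were searched on both strands, so sites further upstream were not covered. The motifs sought were the TATA box TATAAA, the CRE half-site TGACGT, the AP-1 site TGANTCA and the serum response element (CArG box). Among 32851 promoters of that length, these were found in 13.6%, 7.51%, 7.81% and 1.63%. Shown are 120 bases before to 10 after the start site of 3 genes whose messages varied strongly between array libraries (Fos, Egr2 and Junb) and of Jun, which varied little there. Capitals mark the motifs found. The windows lie at chr12:85473770-85473899 on the plus strand (Fos), chr10:67537749-67537878 on the plus strand (Egr2, 1 of the 5 start sites listed for it), chr8:84978739-84978868 on the minus strand (Junb) and chr4:95052213-95052342 on the minus strand (Jun).
Fos: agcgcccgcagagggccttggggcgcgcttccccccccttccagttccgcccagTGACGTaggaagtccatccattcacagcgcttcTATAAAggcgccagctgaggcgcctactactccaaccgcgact
Egr2: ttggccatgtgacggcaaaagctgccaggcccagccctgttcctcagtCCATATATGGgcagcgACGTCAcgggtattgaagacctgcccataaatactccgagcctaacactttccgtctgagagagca
Junb: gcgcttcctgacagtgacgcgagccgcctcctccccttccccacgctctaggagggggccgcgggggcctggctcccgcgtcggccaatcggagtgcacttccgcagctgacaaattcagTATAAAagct
Jun: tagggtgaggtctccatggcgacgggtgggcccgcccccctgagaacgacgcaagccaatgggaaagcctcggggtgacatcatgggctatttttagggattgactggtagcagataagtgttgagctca
The Fos window holds the CRE half-site followed by the TATA box. The Egr2 window holds a CArG box followed by the CRE half-site on the opposite strand. The Junb window holds the letters of the TATA box, but they begin at the listed start site itself (position 0). In Fos they begin at -33 from it. Of the 5 Egr2 windows of 300 bases, which overlap in part, 3 hold both motifs, 1 holds a CArG box alone and 1 holds none of the 4. None of the 4 motifs was found in the 300 bases of Jun, Fosb, Fosl2 or Jund. Of these, Fosb, whose window is not shown, also varied strongly between array libraries. Its highest library exceeded its lowest 9.01-fold on the actuated array and 9.69-fold on the static array. A match describes letters only and is no evidence of binding.

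Depth differed between the arms. Total counts were 7269276 to 9839951 in the actuated array libraries, 613344 to 13162635 in the static array libraries, 1536 to 3602716 at low intensity, 243510 to 3971348 at high intensity and 1457250 to 3771637 in the controls. The tests used the 21 libraries whose protein-coding genes took more than 1000000 counts, which left out static array replicate 3, low intensity replicate 6, control replicate 4 and high intensity replicates 4 and 5. In the libraries left out, Fos had 0 counts in control replicate 4, where ribosomal RNA took 78.4% of counts, 0 counts in low intensity replicate 6, and 21 and 7 counts in high intensity replicates 4 and 5. The fit held 4 actuated array, 3 static array, 5 low intensity, 5 control and 4 high intensity libraries. In these, ribosomal RNA took 6.54 to 11.4% of counts on the actuated array and 7.68 to 8.81% on the static array. It took 9.06 to 12.7% at low intensity, 9.30 to 15.2% at high intensity and 11.2 to 16.4% in the controls. Mitochondrial shares were 6.77 to 11.4%, 7.30 to 8.04%, 9.09 to 13.2%, 8.54 to 14.6% and 11.7 to 17.5% in the same order. Levels are counts scaled to the library size with TMM factors (CPM) unless another scale is named, and total-scaled CPM stands for counts scaled to the library total alone, which was used where all 8 array libraries are shown and for summed markers. Of the 8 motor neuron markers (such as Mnx1, Isl1 and Chat), all were present in every group, with summed levels of 357 to 801 total-scaled CPM, so the labelled cell type has its markers. The astrocyte and radial glia markers were also present, at 2161 to 4634 total-scaled CPM over their 6 genes.

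Per unit of length, Jun and Jund led the family in the controls. Mean TPM there was 45.2 ± 8.41 for Jun, 19.96 ± 5.81 for Jund and 14.3 ± 5.67 for Fos (SD, n = 5). Arc at 3.88 ± 2.32, Fosl2 at 3.72 ± 1.64, Egr1 at 2.37 ± 1.61 and Junb at 2.14 ± 1.05 came next, and these 4 neighbours in the order did not differ beyond their spread. Fosb, Egr2 and Egr3 were listed at 0.441, 0.290 and 0.0693 TPM, with Egr2 and Egr3 within reach of 0. Fosb had 0 counts in control replicate 2 and 2 to 10 counts in the other tested controls. On the actuated array the order differed, with mean TPM of 153 ± 134 for Fos, 72.1 ± 10.95 for Jun, 52.0 ± 54.5 for Egr1 and 48.0 ± 10.7 for Jund (SD, n = 4). The SD of Fos and Egr1 was of the size of the mean because the libraries of that group were far apart.

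**Figure D1:**
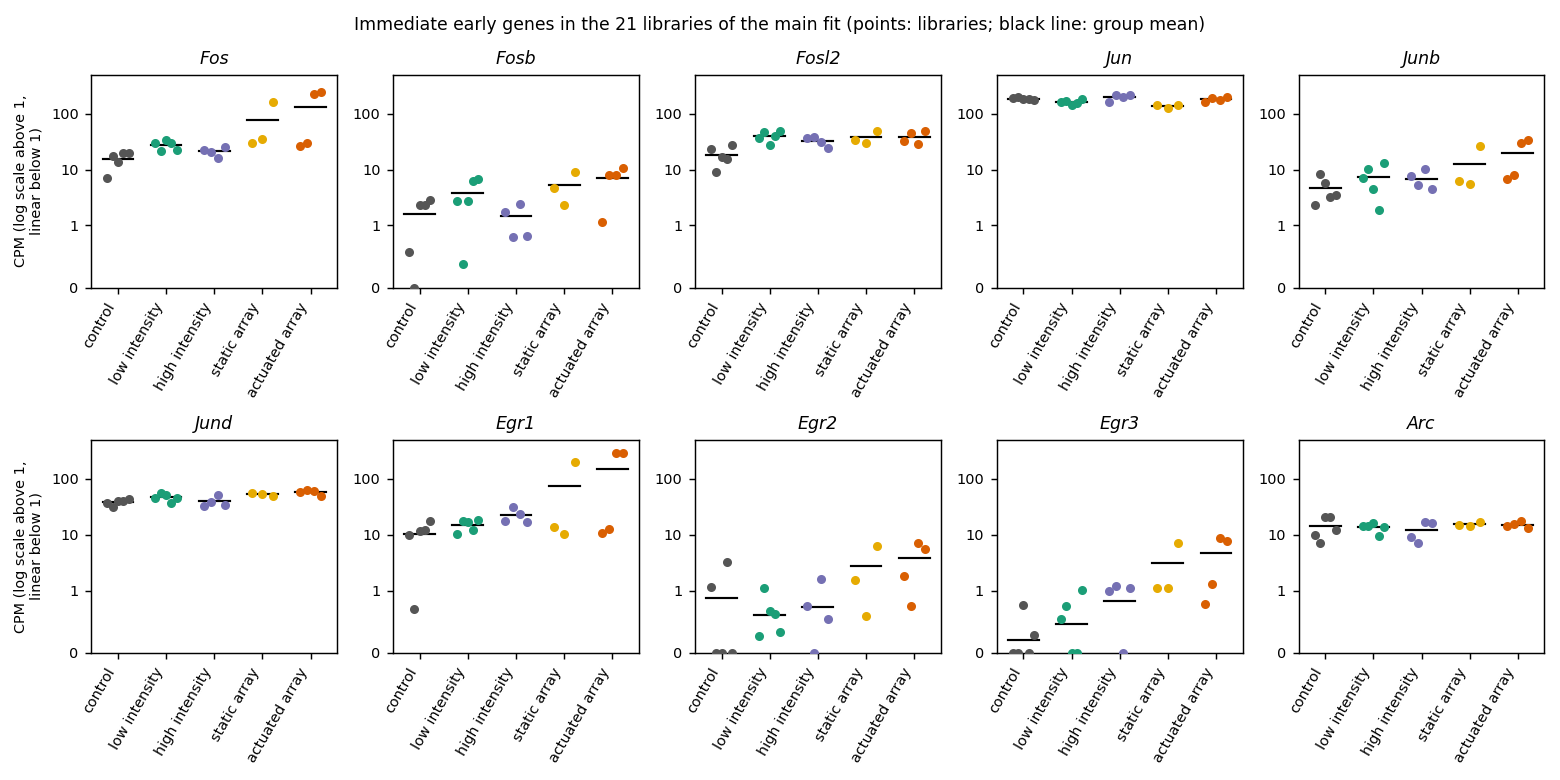
Levels of the 10 immediate early genes in the 21 tested libraries, in CPM on an axis that is logarithmic above 1 and linear below, with 1 point per library and a black line at each group mean. Fos, Egr1, Egr2, Egr3 and Junb separate into low and high libraries on both arrays, whereas Jun, Jund and Arc lie close together in these groups.

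On the arrays, the inducible members split the libraries of each group, and actuated and static arrays showed the split alike. Egr1, the zinc finger factor induced by growth factors and calcium, was at 11.3, 13.5, 288 and 303 total-scaled CPM in actuated array replicates 1, 2, 3 and 4. It was at 14.8, 10.7, 253 and 209 in static array replicates 1, 2, 3 and 4. Replicates 3 and 4 were therefore the high libraries in both groups, and the groups overlapped. The highest library exceeded the lowest 26.9-fold on the actuated array and 23.6-fold on the static array. Static array replicate 3 was shallow, and its 155 Egr1 counts give an exact 95% Poisson interval of 214 to 296 total-scaled CPM, which covers counting error only. In that library 31731 genes were detected, against 20374 to 23420 in the deeper static array libraries. The part of this in its levels was not tested.

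Fos, the partner that gives AP-1 its inducibility, had the same high libraries. On the actuated array it was at 27.8, 31.7, 221 and 248 total-scaled CPM in replicates 1 to 4. On the static array it was at 31.3, 36.0, 166 and 170, the third of these from 102 counts with an interval of 136 to 202. The fold between highest and lowest library was 8.94 on the actuated and 5.45 on the static array.

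Junb, a Jun protein that can restrain Jun, followed them at a lower level. It was at 7.15, 8.74, 30.3 and 35.1 total-scaled CPM on the actuated array and at 6.68, 5.62, 22.8 and 27.7 on the static array. Egr3, a relative of Egr1 that muscle spindles need to develop, was at 0.825, 1.42, 8.78 and 7.98 on the actuated array and at 1.19, 1.14, 14.7 and 7.38 on the static array. Each of these genes was thus higher in both libraries numbered 3 and 4 than in any library numbered 1 or 2. Egr2, known for its part in hindbrain patterning and myelination, was at 1.93, 0.813, 7.13 and 5.83 total-scaled CPM on the actuated array and at 1.67, 0.608, 35.9 and 6.60 on the static array. It too was higher in both libraries numbered 3 and 4 than in any library numbered 1 or 2. Fosb was at 1.24, 8.74, 7.79 and 11.2 on the actuated array and at 5.01, 2.36, 22.8 and 9.32 on the static array, so actuated array replicate 2 stood with the high libraries for this gene.

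The other members showed no such split. Jun was at 172, 203, 174 and 202 total-scaled CPM on the actuated array and at 151, 129, 86.4 and 152 on the static array. Its highest library exceeded its lowest by 1.18-fold and 1.76-fold. Arc, the synaptic protein gene, was at 15.3, 16.9, 17.4 and 13.9 on the actuated array and at 15.7, 14.4, 17.9 and 18.1 on the static array, with folds of 1.25 and 1.26. Arc was thus level across libraries in which Egr1 differed more than 20-fold. Jund and Fosl2 spanned folds of 1.35 and 1.82 on the actuated array and of 1.59 and 1.74 on the static array.

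The labels give no date, plate or extraction batch for the array libraries, so what the high libraries share could not be read from them. The mitochondrial share of counts was 8.03, 6.77, 11.4 and 8.05% in actuated array replicates 1 to 4 and 7.78, 7.30, 10.003 and 8.04% in static array replicates 1 to 4, so replicate 3 had the highest share in each group and replicate 4 did not stand apart. The ribosomal RNA share was 7.81, 6.54, 11.4 and 8.15% in actuated array replicates 1 to 4. In static array replicates 1 to 4 it was 7.68, 8.03, 8.67 and 8.81%. In each group it was thus higher in replicates 3 and 4 than in replicates 1 and 2. The summed astrocyte and radial glia markers were at 3621, 3269, 4595 and 4634 total-scaled CPM on the actuated array and at 3925, 3655, 2669 and 4545 on the static array. They were higher in 3 of the 4 libraries with high Egr1, static array replicate 3 being the exception. In that library the 8 skeletal muscle markers summed to 507 total-scaled CPM, against 8 to 114 in the other static array libraries, the endothelial markers to 94.6 against 6.44 to 26.5, and the microglia markers to 47.3 against 0.954 to 5.83. The pan-neuronal markers summed to 2170 there, against 3232 to 3774. The part of these in the result was not tested. In bulk libraries, fewer cells of a type and less RNA per cell cannot be told apart.

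**Figure D2:**
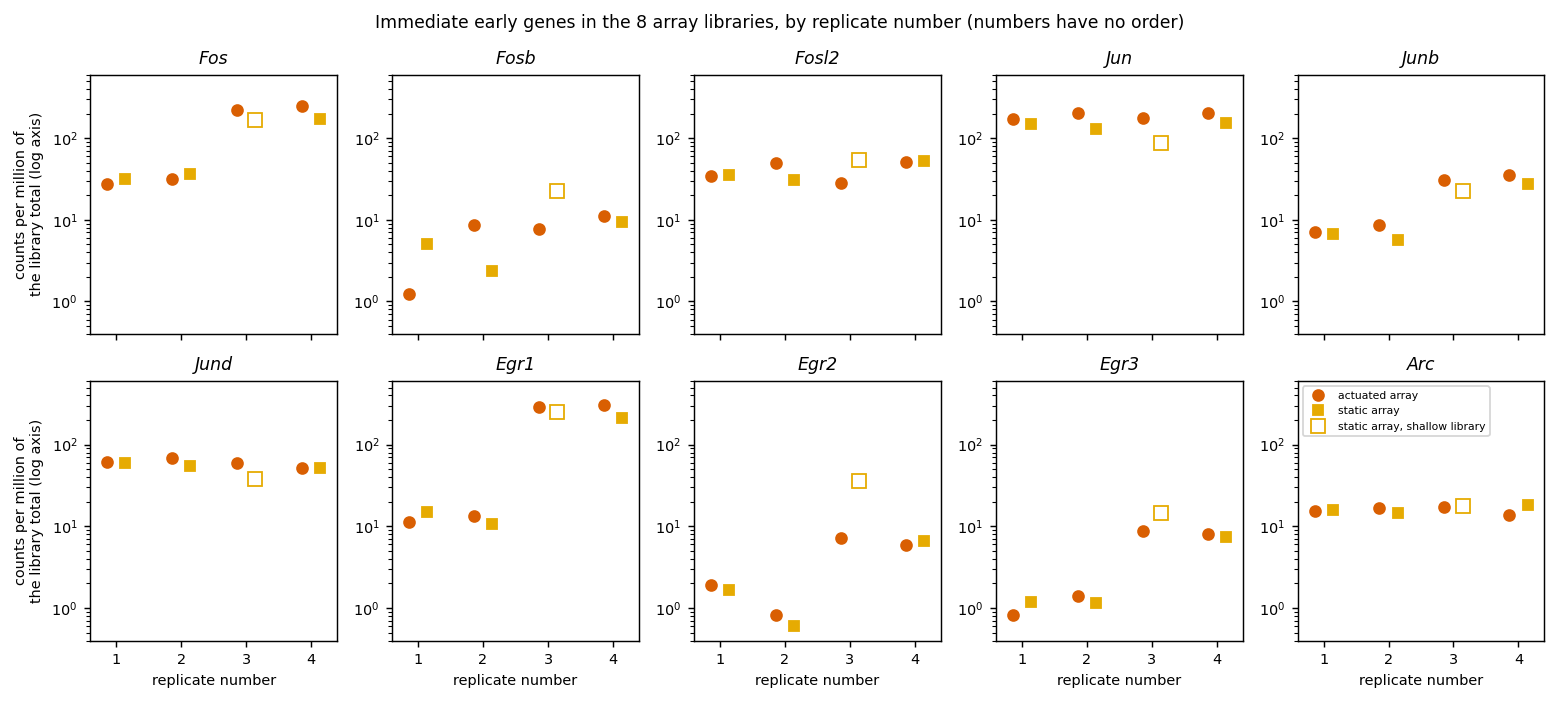
Total-scaled CPM (log axis) for each gene in the 8 array libraries, plotted by replicate number, with actuated arrays as circles and static arrays as squares and the shallow static library as an open square. Egr1, Fos, Junb, Egr2 and Egr3 were high in replicates 3 and 4 of both groups, and Jun, Jund, Fosl2 and Arc were not.

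Actuation itself gave no call among the family in the edgeR test of the 21 libraries. In the comparison of actuated with static arrays, 0 of the 10 genes had an adjusted p under 0.05 in edgeR's quasi-likelihood test, where 0% of the 14730 genes tested did. DESeq2 and limma voom also called 0. Without the filter on low counts, edgeR called Egr1, along with 40 genes in all. At an unadjusted p under 0.05 there was 1 member, Jun, against 0.38% of all genes. Jun was higher on the actuated array, at 163, 188, 175 and 194 CPM against 143, 126 and 145 CPM, and these were the only values among the members that did not overlap between the groups, as for 4.33% of all genes. The log2 difference of Jun was 0.39 with an SE of 0.11 (adjusted p = 1, edgeR).

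The inducible members differed less between the arrays than between libraries of one array. Egr1 averaged 151 ± 161 CPM on the actuated array (SD, n = 4) and 74.5 ± 108 CPM on the static array (n = 3), a log2 difference of 1.03 with an SE of 0.88. Fos averaged 129 ± 117 and 75.7 ± 74.9 CPM, a log2 difference of 0.78 with an SE of 0.58. Those means hold 2 high libraries of 4 on one side and 1 of 3 on the other, since static array replicate 3 was left out for depth. Between libraries of the same number, the log2 differences of Egr1 were -0.39, 0.34, 0.19 and 0.54 for numbers 1 to 4. Leaving out 1 library moved the log2 difference of Egr1 from 0.49 (without actuated array replicate 4) to 3.62 (without static array replicate 4) and that of Fos from 0.30 to 1.99 (the same libraries). Without static array replicate 4, the 1 high static library in the fit, 4 members (Fos, Jun, Junb and Egr1) instead of 1 had an unadjusted p under 0.05, all at an adjusted p of 1. The share of all genes at that unadjusted p was not counted without this library, and 0 genes had an adjusted p under 0.05. With all 8 array libraries fitted alone, again 0 members were called. The median log2 difference of the 10 members was 0.42, against 0.00 over all genes.

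Against the controls, the static array had higher levels of most members, but none passed the adjusted threshold. By edgeR, 0 of 10 members had an adjusted p under 0.05, against 0.713% of all genes, and 8 of 10 had an unadjusted p under 0.05, against 12.6% of all genes. DESeq2 called 3 (Fos, Fosl2 and Jun) and limma voom 0, where they called 381 and 151 of the 14730 genes. The comparison sets libraries of one arm against those of the other, which differ also in depth, so arm and array cannot be told apart. Values of 5 members did not overlap between the groups (Fos, Fosl2, Jun, Jund and Egr3), as for 8.14% of all genes. The members had a median log2 difference of 1.58.

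Among the Fos genes, Fos was at 29.6, 35.3 and 162 CPM on the static array and at 7.19 to 20.1 CPM in the controls, with a median of 17.5. All static array libraries lay above all controls, at a log2 difference of 2.28 with an SE of 0.58 (adjusted p = 0.0611, edgeR). Fosl2, which encodes the Fos relative FRA2, was at 33.2, 30.4 and 49.9 CPM against 9.11 to 27.5 CPM (log2 difference 1.02, SE 0.27, adjusted p = 0.0746). Fosb, at 1.70 with an SE of 0.80, had overlapping groups.

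Among the Jun genes, Jun went the other way. It was at 143, 126 and 145 CPM on the static array and at 188, 197, 182, 182 and 172 CPM in the controls, a log2 difference of -0.42 with an SE of 0.11 (adjusted p = 0.0739, edgeR). On the log2(TPM + 1) scale its sign turned, to 0.16, which was -0.34 relative to the median of all genes. Jund, the member most steadily expressed in many tissues, was at 56.6, 54.0 and 49.7 CPM against 31.9 to 44.6 CPM (log2 difference 0.46, SE 0.16, adjusted p = 0.199). The groups of neither gene overlapped. Junb overlapped, with a log2 difference of 1.45 and an adjusted p of 0.294.

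Among the Egr genes and Arc, Egr1 was at 14.02, 10.5 and 199 CPM on the static array and at 0.701 to 17.7 CPM in the controls, so static array replicate 4 alone lay above them. Its log2 difference was 2.82 with an SE of 0.90 (adjusted p = 0.151, edgeR). Egr3 was at 1.13, 1.12 and 7.03 CPM, against controls of 0, 0, 0.769, 0 and 0.290 CPM, where 1 count is worth a large part of the level. Arc was at 14.9, 14.1 and 17.3 CPM and spanned 7.01 to 21.1 CPM in the controls, with a log2 difference of 0.13 and an SE of 0.32. Without static array replicate 4, 3 members (Fosl2, Jun and Jund) instead of 8 had an unadjusted p under 0.05, and the log2 difference was 1.08 for Fos, 0.78 for Fosl2, 0.36 for Junb, 0.23 for Egr1 and 2.31 for Egr3. The share of all genes at that unadjusted p was not counted in this fit. Of all genes, 18 instead of 105 had an adjusted p under 0.05 in it. The summed astrocyte and radial glia markers (all 6 detected) also did not overlap between these groups, at 3655 to 4545 total-scaled CPM on the static array and 2161 to 2828 in the controls. Nor did the 5 progenitor markers, at 451 to 603 and 284 to 356 total-scaled CPM. The part of either in the result was not tested.

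In the biochemical arm, Fosl2 was the member that passed the test. It rose at low intensity against the controls, from 23.6, 9.11, 16.5, 15.4 and 27.5 CPM in control replicates 1, 2, 3, 5 and 6 to 36.2, 47.6, 27.6, 39.2 and 49.3 CPM in low intensity replicates 1 to 5. The groups did not overlap, but their nearest libraries (27.5 and 27.6 CPM) touched. The difference was 2.14-fold (log2 difference 1.10, SE 0.25, adjusted p = 0.0418, edgeR's quasi-likelihood test), and it was the only call among the 10 members, against 0.597% of all genes. The call sat at the edge of the threshold. It was lost without any one of 11 of the 21 libraries: actuated array replicates 1 or 4, static array replicates 1 or 2, low intensity replicates 1, 2 or 5 and control replicates 1, 2, 3 or 5, with adjusted p between 0.0203 and 0.110 and log2 differences between 0.93 and 1.29 over all 21. It was also lost with all 26 libraries (1.18, adjusted p = 0.566), with only the groups compared (adjusted p = 0.112) and with limma voom (0.88, adjusted p = 0.296).

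Other members at low intensity stayed short of the threshold. Fos was at 29.9, 21.7, 34.4, 29.7 and 22.8 CPM, above each control library (7.19, 17.5, 13.8, 20.1 and 19.4 CPM), with a log2 difference of 0.84 and an SE of 0.56 (adjusted p = 0.510, edgeR). Fos and Fosl2 were the 2 members whose groups did not overlap, as for 2.25% of all genes. Fosb reached 6.32 and 6.80 CPM in low intensity replicates 4 and 5 but 0.375 CPM in replicate 2, and averaged 3.80 ± 2.71 against 1.62 ± 1.26 CPM (SD, n = 5 each). Jun averaged 162 ± 13.6 against 184 ± 8.88 CPM, and Jund 47.2 ± 6.91 against 38.9 ± 4.76 CPM. Egr1 averaged 15.1 ± 3.75 against 10.4 ± 6.16 CPM and Arc 13.7 ± 2.58 against 14.2 ± 6.38 CPM, with log2 differences of 0.53 (SE 0.91) and -0.02 (SE 0.29). Fosl2 was also the 1 member with an unadjusted p under 0.05, against 15.2% of all genes. The median log2 difference of the 10 members was 0.61.

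Markers of other cells differed between these groups as well. The 5 progenitor markers (Sox2, Nes, Olig2, Mki67 and Top2a) summed to 369 to 1045 total-scaled CPM at low intensity and to 284 to 356 in the controls, without overlap. The 8 mesenchymal markers summed to 294 to 2721 and 358 to 810 total-scaled CPM, with the highest value in low intensity replicate 2, whose Fosl2 was the second highest of its group. The controls also reached higher ribosomal RNA and mitochondrial shares than low intensity, up to 16.4 and 17.5% against 12.7 and 13.2%. Control replicates 2 and 3 had the fewest genes detected of the tested libraries (15011 and 15087). The part of any of these in the Fosl2 result was not tested.

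High intensity libraries showed 0 of 10 members past the adjusted threshold against the controls by edgeR (0.462% of all genes), and DESeq2 and limma voom also gave 0. Fosl2 was the 1 member with an unadjusted p under 0.05, against 15.9% of all genes. It was at 36.1, 37.7, 31.5 and 24.5 CPM, which overlapped the controls, with a log2 difference of 0.80 and an SE of 0.26 (adjusted p = 0.130). Egr1 was at 17.7, 32.02, 23.7 and 16.8 CPM, with the controls at 10.1, 0.701, 11.5, 12.2 and 17.7 CPM. The groups overlapped, and the log2 difference was 1.08 with an SE of 0.92 (adjusted p = 0.615). The groups overlapped for all 10 members, whereas for 3.56% of all genes they did not. Fos averaged 21.1 ± 3.82 CPM and Arc 12.4 ± 4.92 CPM (SD, n = 4), with adjusted p of 0.766 and 0.827. The 8 mesenchymal markers summed to 1022 to 2513 total-scaled CPM at high intensity and the progenitor markers to 494 to 1261, against 284 to 356 in the controls. Both sums lay above every control library, and their part in these values was not tested.

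High and low intensity were not told apart by this family. Of the 10 members 0 passed the adjusted threshold, where 0% of all genes did, and DESeq2 and limma voom called 0. Jun was the 1 member with an unadjusted p under 0.05 (7.68% of all genes), at 164, 216, 196 and 212 CPM at high and 165, 165, 145, 156 and 182 CPM at low intensity. The difference was 0.28 on the log2 scale with an SE of 0.10 (adjusted p = 0.541, edgeR), and the groups overlapped, as did those of the other members (2.63% of all genes did not). For Fosl2 it was -0.30 with an SE of 0.26, so the call at low intensity is not shown to differ from the value at high intensity. The low and high intensity comparisons share their control libraries.

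**Figure D3:**
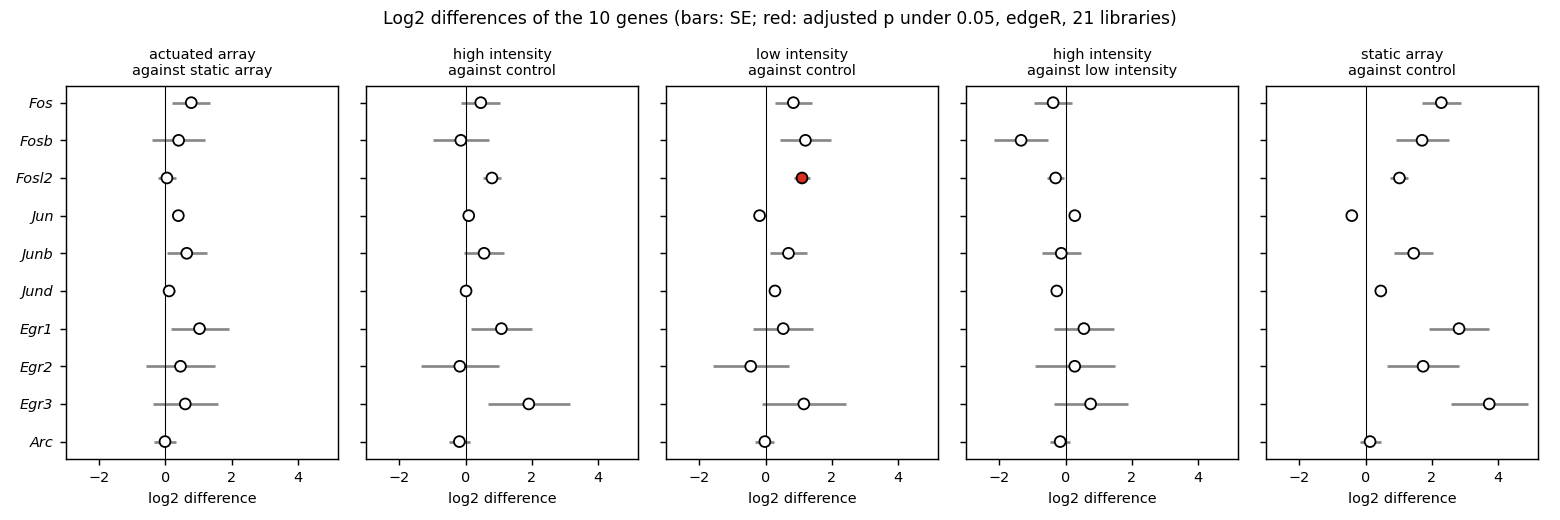
Log2 differences of the 10 genes in the 5 comparisons, with bars of 1 SE and red fill for an adjusted p under 0.05 in edgeR. The one red point is Fosl2 at low intensity against control (1.10), and the bars of Egr1, Egr2 and Egr3 span about 1 log2 unit on each side.

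Atf4 and Nab2 were the genes that passed the test among the dimer partners and relatives of the family. Of 17 such genes 14 were fitted, and 2 rose at low intensity against the controls and 2 on the static array against the controls, the same pair in each case, with 0 lower. Of all genes, 0.441% and 0.299% were called higher in these comparisons. Atf4, a CREB-family factor of the integrated stress response that can pair with Fos and Jun proteins, was at 200, 173, 170, 185 and 214 CPM at low intensity, at 160, 202 and 183 CPM on the static array and at 112, 110, 95.8, 113 and 112 CPM in the controls. Neither group overlapped the controls. The log2 differences were 0.79 (SE 0.11, adjusted p = 0.00293) and 0.74 (SE 0.12, adjusted p = 0.00392, edgeR). Atf4 averaged 125 ± 22.2 CPM at high intensity (SD, n = 4), a log2 difference of -0.60 from low intensity that missed the threshold (adjusted p = 0.0939). Both Atf4 calls were lost with all 26 libraries (log2 differences 0.49 and 0.53), and that at low intensity with the replicate number as a block within each arm (adjusted p = 0.0597).

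Nab2 encodes a corepressor that binds Egr proteins and is itself an Egr target. It was at 21.9, 20.2, 22.1, 16.4 and 27.9 CPM at low intensity and at 1.44, 1.05, 5.38, 6.08 and 5.80 CPM in the controls, a log2 difference of 2.49 (SE 0.44, adjusted p = 0.0172, edgeR). On the static array it was at 25.6, 21.8 and 11.3 CPM (log2 difference 2.33, SE 0.47, adjusted p = 0.0159) and on the actuated array at 25.7, 24.04, 13.02 and 7.94 CPM. On the actuated array, replicates 3 and 4, which had the high Egr1 levels, thus had the lower Nab2 levels. On the static array the same held for replicate 4, the 1 high Egr1 library in the fit, replicate 3 having been left out. At high intensity Nab2 was at 9.93 ± 5.44 CPM against 3.95 ± 2.49 CPM in the controls (log2 difference 1.35, adjusted p = 0.150). The Nab2 call at low intensity was lost with all 26 libraries (adjusted p = 0.0607), voom (0.282), thinning of each library to the depth of the shallowest (0.0501), the block within each arm (0.0501) and without low intensity replicate 1 (0.0521). That on the static array was lost with all 26 libraries (0.241), voom (0.126), only the groups compared (0.107), thinning (0.0819), log2(TPM + 1) (0.0572), log2(TPM + 0.1) (0.0576) and without static array replicate 1 or 2 (up to 0.0839). Atf3, another stress-induced AP-1 partner, had the smallest p of the list between the arrays, at 18.2 ± 5.92 against 13.8 ± 2.63 CPM (adjusted p = 1).

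Fosl1, the Fos relative outside the 10 genes, is named here after its values were seen. It was at 19.4, 7.49, 1.70, 0.632 and 26.2 CPM at low intensity and between 0 and 2.32 CPM in the controls, so 3 of 5 libraries lay above all controls (log2 difference 3.40, SE 1.04, adjusted p = 0.111, edgeR).

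Of 42 other rapid primary response genes 41 were fitted, and 1 was called in any comparison. Nr4a3, an orphan nuclear receptor induced like Fos, rose on the static array against the controls, from 2.88, 1.40, 7.69, 8.89 and 4.93 CPM to 27.6, 32.2 and 18.0 CPM (log2 difference 2.37, SE 0.41, adjusted p = 0.00486, edgeR), where 0.299% of all genes were called higher. The call was lost with only the groups compared (adjusted p = 0.0527) and with the replicate block shared by all groups (0.0632). Nr4a3 did not share the pattern of Egr1 between array libraries, being at 22.4, 25.9, 21.7 and 21.7 CPM on the actuated array. At low intensity Nr4a3 averaged 14.9 ± 7.10 CPM (log2 difference 1.59, adjusted p = 0.0554). The list's genes of smallest p elsewhere were the MAP kinase phosphatase gene Dusp6 between the arrays (0.45, adjusted p = 1), the mRNA decay factor gene Zfp36l1 at high intensity (0.79, adjusted p = 0.0829) and Dusp4 between high and low intensity (-0.40, adjusted p = 0.451). The list's median log2 differences were 0.13 between the arrays, 0.21 at high and 0.17 at low intensity, -0.14 between the intensities and 0.30 on the static array, where all genes had 0.00, 0.00, -0.01, 0.01 and 0.00.

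Genes that act before and after the family had few calls. Of 16 delayed activity-regulated genes of neurons, all fitted, 1 rose at low intensity: Baz1a, a chromatin remodelling subunit gene, at 68.2 ± 23.6 against 28.0 ± 4.99 CPM (SD, n = 5 each; log2 difference 1.29, SE 0.24, adjusted p = 0.0190, edgeR), where 0.441% of all genes were called higher. The Baz1a call was lost with all 26 libraries (adjusted p = 0.636), voom (0.131), thinning (0.213), the blocks shared by all groups (0.0512) and within each arm (0.0738) and without low intensity replicate 1 or 5 (up to 0.0728). The smallest p of this list fell elsewhere to Crh (2.37, adjusted p = 1, at about 1 CPM) between the arrays, to Mbnl2 (0.54, adjusted p = 0.120) at high intensity and to Nptx2, a synaptic pentraxin gene (0.78, adjusted p = 0.102), on the static array, while Baz1a again led between the intensities (-0.89, adjusted p = 0.328). Of 27 upstream regulators 0 were called in the 5 comparisons. Of these, 5 had an unadjusted p under 0.05 at high intensity (15.9% of all genes), 3 at low intensity (15.2%), 2 between the intensities (7.68%), 4 on the static array (12.6%) and 0 between the arrays (0.38%). Leading them were Map2k7 (-0.16, adjusted p = 1), Map2k4 (-0.37, adjusted p = 0.120), Elk3, an SRF partner gene (1.26, adjusted p = 0.0864), Map2k1 (-0.41, adjusted p = 0.469) and Mef2a (-0.53, adjusted p = 0.1001), in the order actuated against static, high against control, low against control, high against low and static against control.

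Of 10 inducible heat shock genes, 1 rose at low intensity: Hspb1, a small heat shock protein gene, at 125, 65.9, 51.1, 50.6 and 144 CPM against 35.4, 38.9, 28.1, 41.2 and 42.0 CPM (log2 difference 1.25, SE 0.29, adjusted p = 0.0443, edgeR). All low intensity libraries lay above all controls, and 0.441% of all genes were called higher. The call was lost with all 26 libraries (adjusted p = 0.346), voom (0.325), only the groups compared (0.0825), thinning (0.158) and the blocks shared by all groups (0.164) and within each arm (0.2001). It was also lost without any one of 15 of the 21 libraries: each actuated array library, static array replicates 1 or 2, low intensity replicates 1, 2 or 5, control replicates 1, 2, 3 or 5 and high intensity replicates 1 or 2 (adjusted p up to 0.1399). Hspb1 also had the list's smallest p at high intensity (0.93, adjusted p = 0.130), and Hspa1a (0.37, adjusted p = 1), Hsp90aa1 (-0.27, adjusted p = 0.624) and Hspd1 (-0.19, adjusted p = 0.531) had it between the arrays, between the intensities and on the static array.

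Likeness to Egr1 was described over the 21 libraries, as Pearson r of log2 CPM after each group's mean was removed. Of the other 9 members, 5 had r over 0.5: Fos (0.763), Egr3 (0.718), Egr2 (0.599), Fosb (0.575) and Junb (0.515). Fosl2 had 0.471, Arc 0.308, Jun 0.144 and Jund 0.0632. Of the 41 rapid primary response genes 17 had r over 0.5, or 41.5%, against 3.03% of the 14729 other fitted genes. The shares were 1 of 14 dimer partners and relatives (7.14%), 0 of 16 delayed genes, 1 of 27 upstream regulators (3.7%) and 1 of 10 heat shock genes (10%). In the other direction, 3 of the 10 heat shock genes (30%) had r under -0.5: Hsp90aa1, Bag3 and Hsph1. So did 1 delayed gene (6.25%), 1 upstream regulator (3.7%), 1 rapid primary response gene (2.44%) and 0 dimer partners, against 2.91% of all genes. Points share library and depth, and array libraries with high Egr1 weigh heavily in each r.

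Named after their values were seen, Ier2, Nr4a1 and Nr4a2 are given with their levels. Ier2, a small nuclear protein gene, was at 6.92, 9.11, 48.9 and 45.3 CPM on the actuated array and at 8.25, 7.89 and 34.3 CPM in static array replicates 1, 2 and 4. Nr4a1, a nuclear receptor gene close to Nr4a3, was at 4.44, 4.32, 31.1 and 28.6 CPM and at 3.05, 2.68 and 20.8 CPM. The high libraries were those with high Egr1. Nr4a2, of the same receptor family, had r of -0.700 and was at 7.18, 6.57, 3.42 and 3.54 CPM on the actuated array and at 3.73, 4.39 and 1.60 CPM on the static array, low where Egr1 was high. In the 14 libraries of the biochemical arm alone the picture differed, since there Egr1 had r of -0.163 with Fos and -0.278 with Junb, and of 0.748 with Fosl2, 0.562 with Jund and 0.546 with Fosb. In that arm 11 of 41 rapid primary response genes had r over 0.5 (26.8%), 6 of 14 dimer partners and relatives (42.9%) and 3 of the 9 other members (33.3%), against 15.1% of all genes, and the lowest Egr1 library, control replicate 2 at 0.701 CPM, stood far below the next control at 10.1 CPM.

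**Figure D4:**
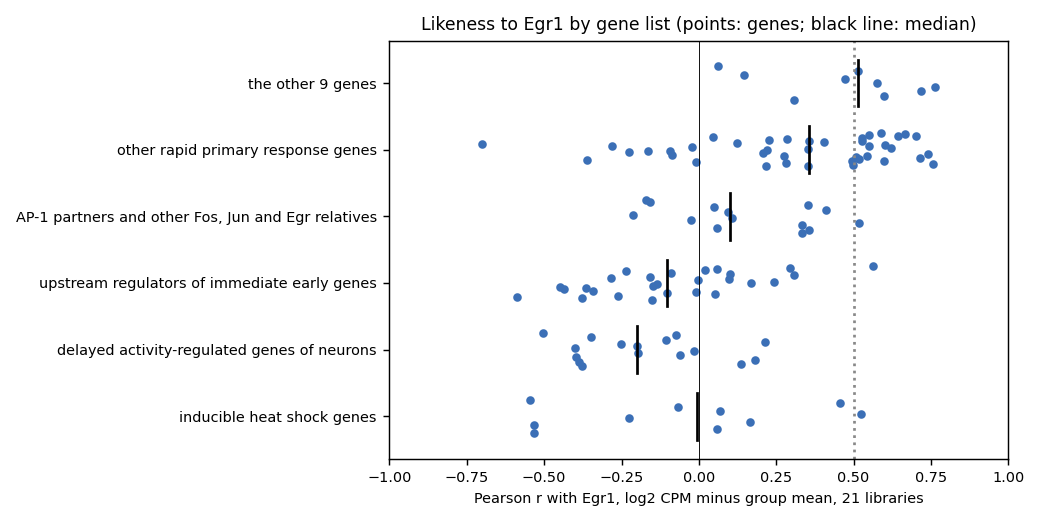
Pearson r with Egr1 over 21 libraries, after removal of group means, for the genes of 6 lists (1 point per gene, black line at the median, dotted line at 0.5). The other members and the rapid primary response genes reach furthest to the right, with medians of 0.515 and 0.357, and the delayed genes lie lowest, with a median of -0.199.

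Among 11541 fitted genes with a median of at least 5 CPM, the 5 genes most like each of 4 members were listed by Pearson r of log2 CPM over the 21 libraries, group differences included. For Egr1 these were Id2 (0.842), Sh3bp4 (0.841), Mocs2 (0.822), Fos (0.815) and St6gal1 (0.810). For Fos they were Mmp15 (0.834), Dhrs3 (0.824), Fdft1 (0.818), Tmem176b (0.817) and Bhlhe40 (0.816). Id2, an inhibitor of helix-loop-helix factors, was at 53.4, 53.7, 125 and 128 CPM on the actuated array and at 46.1, 52.2 and 115 CPM on the static array, high in the libraries in which Egr1 was high. For Jun the genes were Ccdc14 (0.754), Celf2 (0.724), Prrc2a (0.665), Pde7b (0.648) and St18 (0.643). For Arc they were Fam136a (0.846), Mrps16 (0.813), Eola1 (0.786), Tipin (0.785) and Nbdy (0.763). With group means removed, r between Jun and Ccdc14 was 0.290. In the 14 libraries of the biochemical arm, also with group means removed, r with Egr1 was 0.518 for Id2, 0.720 for Sh3bp4, 0.681 for Mocs2 and 0.7002 for St6gal1. There r with Fos was 0.715 for Mmp15, 0.153 for Dhrs3, -0.270 for Fdft1, 0.173 for Tmem176b and 0.0576 for Bhlhe40, and r with Arc was 0.766 to 0.899 for its 5 genes.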

How the data were processed

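Bulk RNA sequencing of 26 libraries was analysed. One deposited table holds estimated counts per gene as whole numbers, without scaling for depth, and the other holds TPM. The deposited TPM values have nearly the same sum in each library. The submitters' processing notes name STAR, Salmon, BWA 0.7.12-r1039 and bedtools 2.25.0 and the builds mm10, GRCm39 and hg19, without roles, so promoter coordinates are those of the RefSeq table. Whether counting used the strand is not given in the sources used here. No molecular identifiers are mentioned.

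Counts were fitted in 1 model with a coefficient per group, using edgeR 4.0.16 (R 4.3.3), filterByExpr, TMM scaling, the quasi-likelihood test and Benjamini-Hochberg adjustment over 14730 genes with a threshold of 0.05. All groups share 1 estimate of spread. Alternatives were all 26 libraries, DESeq2 size factors, no filter, DESeq2 1.42.0, limma 3.58.1 (voom with quality weights, and log2(TPM + 1) or log2(TPM + 0.1)), the compared groups alone, a replicate block, thinning to the shallowest tested library and leaving out each library in turn. Fits of the array libraries alone and a block numbered within each arm were added after seeing the data. SE was derived from the log2 difference and the F statistic. The edgeR script was tested on simulated data.

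Members and gene lists were chosen with earlier results of these data known. Named were the 10 members, each list's genes with an adjusted p under 0.05 and its gene of smallest p in each comparison, and the 5 genes of highest likeness. With separate cultures not stated, p-values measure the spread between these libraries, which may be technical.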

Additional observations from a re-analysis of the deposited data

Results flagged for a closer look

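Egr3 at high intensity was at 0 CPM in replicate 3, where the other 3 tested libraries were at 1.01, 1.22 and 1.10 CPM. This library lay apart from the rest of its group by 0.83 of the group's range. In replicate 3 a count of 0 allows up to 1.17 total-scaled CPM (3 counts), so a level of 1.01 or 1.10 CPM could not be told from 0 in it. Of 40 combinations of gene and group with 4 or more libraries examined, this was the 1 that stood out. Chance flags about 1 combination in 20, so 1 of 40 is no more than chance gives.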

How the results depend on the processing

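The count of members called was 0 at low intensity against control with all 26 libraries, with limma voom, with only the groups compared, with thinning and with both replicate blocks, in place of 1. Without a filter on low counts it was 1 between the arrays (Egr1), 2 at high intensity (Fosl2 and Egr1), 2 at low intensity (Fos and Fosl2) and 4 on the static array against control (Fos, Fosl2, Junb and Egr1). Of all genes, 40, 700, 660 and 459 were called without the filter in the same order. DESeq2 gave 3 on the static array, where it called 381 of the 14730 genes. With log2(TPM + 1) and with log2(TPM + 0.1) it was 2 at high intensity (Fosl2 and Jun), 4 at low intensity (Fosb, Fosl2, Jun and Jund) and 4 on the static array (Fos, Fosl2, Jund and Egr2). Of the 14730 genes, 2324, 5440 and 1091 were called with log2(TPM + 1), and 2292, 5537 and 1145 with log2(TPM + 0.1). The cause was not tested. On the log2(TPM + 1) scale the median of all genes shifted by 0.53, 0.64 and 0.50 at high intensity, at low intensity and on the static array against control, and by 0.11 and -0.10 between the arrays and between the intensities. Jun at low intensity was reversed there, at 0.56 and, with a pseudocount of 0.1, 0.57, against -0.18 in CPM, and was -0.08 relative to that median. Leaving out 1 library gave 0 to 1 members at low intensity, 0 to 1 on the static array against control (Fos without actuated array replicate 1 or 2, Fosl2 without control replicate 6) and 0 in the other 3 comparisons.

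All genes called, in the order actuated against static, high against control, low against control, high against low and static against control, numbered 0, 68, 88, 0 and 105. They were 0, 6, 4, 0 and 2 with all 26 libraries, 40, 700, 660, 126 and 459 without a filter, 5, 467, 471, 49 and 381 with DESeq2, 0, 0, 1, 0 and 151 with voom, 0, 17, 21, 0 and 42 with only the groups compared, 0, 1, 16, 0 and 69 with thinning, and 0, 2324, 5440, 2 and 1091 with log2(TPM + 1). Leaving out 1 library gave 0, 0 to 397, 2 to 264, 0 to 3 and 18 to 141. The lowest counts at high intensity, at low intensity and on the static array were those without actuated array replicate 1, low intensity replicate 1 and static array replicate 4, and the highest those without high intensity replicate 6, low intensity replicate 3 and control replicate 6.

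Whether the replicate numbers pair the array samples was not settled. In the tested libraries the deviations of same-numbered actuated and static array libraries from their group means correlated at 0.144, -0.116 and 0.182 for numbers 1, 2 and 4. Static array replicate 2 correlated best with actuated array replicate 1. With all 26 libraries the correlations were 0.143, -0.0346, 0.0946 and 0.137 for numbers 1 to 4. Their median was 0.116, against -0.0533 between array libraries of different numbers. With the replicate block shared by all groups, 0 members were called in each comparison, all genes called numbered 0, 2, 8, 0 and 36, and Fosl2 at low intensity had an adjusted p of 0.131 (0.191 with the block numbered within each arm). That block called 0, 1, 0 and 3 of all genes in the first 4 comparisons. With the block on the array groups alone the log2 difference of Fos between the arrays was 0.08, and with all 8 array libraries and the block it was 0.16, against 0.78.

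Depth limits the low members: 3 counts are worth 0.755 to 1.93 total-scaled CPM in the tested libraries of the biochemical arm, above the mean level of Egr3 in the controls.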
